A study of Rattus norvegicus with 9 samples.

Results

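The transcription factors AP-1 and EGR are products of immediate early genes, and 10 of these genes were followed here: Fos, Fosb, Fosl1, Fosl2, Jun, Junb, Jund, Atf3, Egr1 and Egr2. They were picked by gene symbol from the 23768 genes of a raw count table, which held all 10. RNA sequencing had been done on total RNA of tibia from male Sprague Dawley rats. The labels form 3 groups of 3 libraries, PMLGH (replicates 2, 3 and 4), GelMA (replicates 2, 3 and 4) and Model (replicates 1, 2 and 5). The abbreviation GelMA commonly stands for gelatin methacryloyl, a gelatin that sets to a hydrogel. The labels call the treatment of each group only by these names. They do not spell out PMLGH, the procedure behind Model, the time of sampling or whether each replicate was a separate animal, so the p-values measure the spread between these samples, which may be technical. The series title concerns bone healing in diabetes and a peptide that imitates lysyl oxidase, and no label says which groups were diabetic.

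Immediate early genes are transcribed within a short time of a stimulus from proteins that the cell already holds, and most of their transcripts decay quickly. AP-1 is a dimer: a JUN protein pairs with another JUN protein, with a FOS protein or with a relative such as ATF3, while FOS proteins need a JUN partner. The EGR proteins are zinc finger factors that bind DNA alone and are restrained by the co-repressors NAB1 and NAB2. In mice, Fos is needed to form osteoclasts, the cells that resorb bone, and Fosl1 and Fosl2 act in osteoblasts, the cells that make it.

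All 9 libraries held between 34571478 and 37166383 counts. Model 2 stood apart: the chi-square between its counts and those of Model 1 and Model 5 averaged 33.0 and 27.7 over 13686 genes, beside 7.56 to 17.1 for the other replicate pairs. Bone markers were present in all groups, and the summed level of 12 of them, such as Bglap and Col1a1, was 33390 to 38653 CPM in PMLGH, 30758 to 34359 CPM in GelMA and 14990 to 18669 CPM in Model. The sums of PMLGH and GelMA overlapped, and Bglap by itself averaged 436.6 CPM in PMLGH and 517.3 CPM in GelMA. CPM are counts scaled to a common library size by TMM, a factor that sets the bulk of genes equal between libraries. Red cell markers were higher than those of any other type listed, at 60495 to 69573, 61913 to 70176 and 81676 to 90406 CPM in the same groups. The labels name no batch. In whole tissue, fewer cells of a type and less RNA per cell cannot be told apart.

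Of the 10 factors, 8 rose in PMLGH against Model and none fell, where 27.5% of all 16816 genes tested were called, 15.7% rose and 11.9% fell (edgeR quasi-likelihood test, Benjamini-Hochberg adjusted p under 0.05). In GelMA against Model 3 of the 10 rose and none fell, where 22.6% of all genes were called, 12.7% rose and 9.88% fell. In PMLGH against GelMA 2 of the 10 rose and none fell, where 3.44% of all genes were called, 1.8% rose and 1.64% fell. The factors differed in pattern. Fos and Fosb were high in PMLGH alone of the 3 groups, Egr1, Egr2 and Junb were high in both PMLGH and GelMA, and Jund passed in no comparison. The median log2 fold change of the 10 was 0.68 in PMLGH against Model, beside 0.02 over all tested genes. It was 0.32 in GelMA against Model, beside 0.03, and 0.21 in PMLGH against GelMA, beside 0.0028. The comparisons share groups, so their values are set side by side and no agreement between them is read as a result. The libraries of the compared groups did not overlap for 8, 6 and 6 of the 10 factors in these comparisons, where 39.4%, 36.6% and 23.7% of all tested genes did not overlap.

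**Figure D1:**
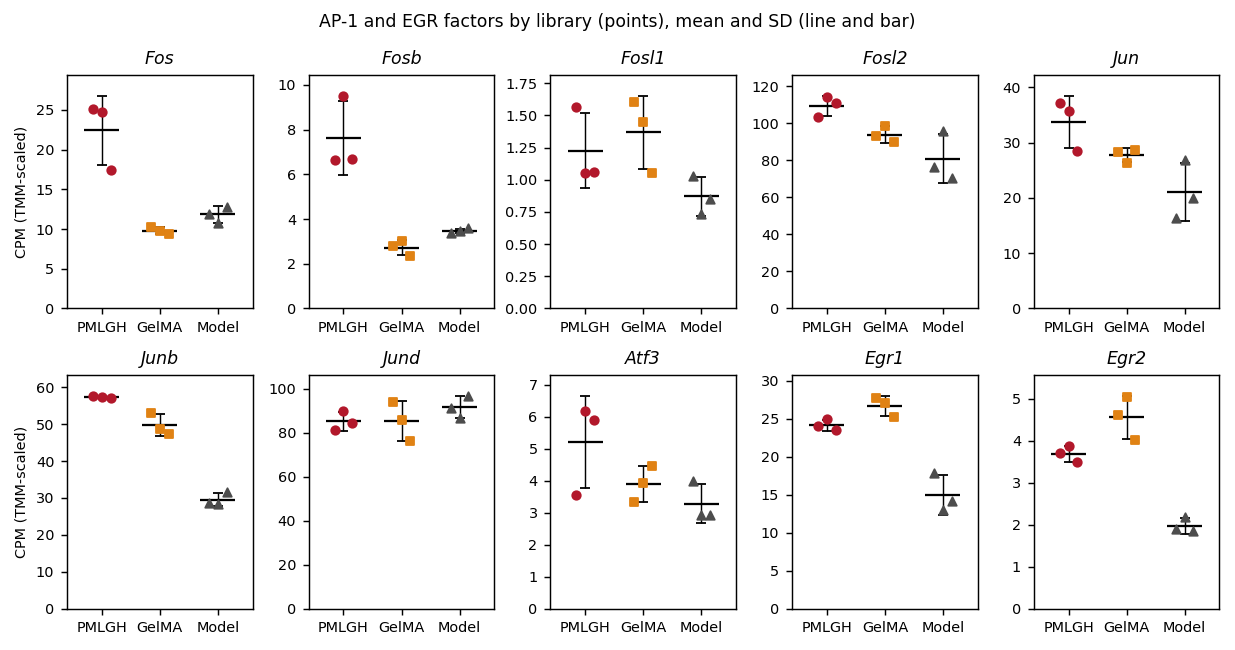
Level of each of the 10 factors in TMM-scaled CPM (y axis, from 0, a scale of its own in each panel) in the PMLGH, GelMA and Model libraries (x axis). Points are single libraries, the line is the mean and the bar the SD (n = 3). Fos lies at 17.4 to 25.1 CPM in PMLGH, 9.35 to 10.3 CPM in GelMA and 10.8 to 12.8 CPM in Model, while Egr2 is lowest in Model.

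Fos, the founding FOS protein and a standard readout of a recent stimulus, had 931, 918 and 640 counts in PMLGH 2, 3 and 4. It had 372, 355 and 346 counts in GelMA 2, 3 and 4, and 404, 383 and 437 counts in Model 1, 2 and 5. Every PMLGH library lay above every other library, and PMLGH 4 was the lowest of its group. The level was 22.4 ± 4.3 CPM in PMLGH (SD, n = 3), 9.78 ± 0.47 CPM in GelMA and 11.8 ± 1.0 CPM in Model. Fos rose in PMLGH against Model by 0.92 ± 0.13 on the log2 scale (± is an approximate SE, edgeR adjusted p = 0.00012) and against GelMA by 1.20 ± 0.13 (adjusted p = 9.9e-05). In PMLGH against GelMA 2.47% of tested genes had a larger change in either direction. The GelMA libraries all lay below the Model libraries, and that difference of -0.28 ± 0.14 did not pass (adjusted p = 0.16).

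Fosb, a close relative of Fos whose shortened splice form increases bone mass when overproduced in mice, followed the same order of groups. It had 246, 353 and 246 counts in PMLGH 2, 3 and 4, and 101, 110 and 87 counts in GelMA 2, 3 and 4. Model 1, 2 and 5 had 115, 123 and 122 counts. The lowest PMLGH library held 6.64 CPM and the highest library outside that group 3.58 CPM, so PMLGH did not overlap with either group. Fosb averaged 7.62 ± 1.6 CPM in PMLGH, 2.72 ± 0.34 CPM in GelMA and 3.48 ± 0.096 CPM in Model (SD, n = 3). It rose in PMLGH against Model by 1.13 ± 0.18 (adjusted p = 0.00034) and against GelMA by 1.49 ± 0.19 (adjusted p = 0.00024), and 1.24% of tested genes changed more than that in PMLGH against GelMA. GelMA against Model gave -0.36 ± 0.19, which did not pass (adjusted p = 0.20). A table of counts per gene does not separate the splice forms.

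The remaining FOS genes, Fosl1 and Fosl2, encode FRA-1 and FRA-2. Fosl2 held 103.7 to 114.2 CPM in PMLGH, 90.2 to 98.7 CPM in GelMA and 70.3 to 95.7 CPM in Model, where Model 2 was the highest and reached into the range of GelMA. It rose in PMLGH against Model by 0.44 ± 0.09 (adjusted p = 0.0021), the smallest rise called among the 10. In GelMA against Model it gave 0.22 ± 0.09 (adjusted p = 0.099), and 0.33 without Model 2 (adjusted p = 9.3e-04), while PMLGH against GelMA gave 0.22 ± 0.09 (adjusted p = 0.24, and 0.027 without Model 2). Fosl1 was the scarcest of the 10, with 39 to 58 counts in PMLGH, 39 to 58 counts in GelMA and 26 to 35 counts in Model. A count of 26 has a 95% Poisson interval of 17.0 to 38.1, which covers counting error only. Its differences did not pass, at 0.49 ± 0.35 in PMLGH against Model, 0.65 ± 0.35 in GelMA against Model and -0.16 ± 0.34 in PMLGH against GelMA (adjusted p = 0.33, 0.21 and 0.88).

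Of the JUN genes, only Junb kept all 3 groups apart. JUNB pairs with FOS proteins and is a weaker activator than JUN. It had 2133, 2128 and 2094 counts in PMLGH 2, 3 and 4, 1921, 1777 and 1755 counts in GelMA 2, 3 and 4, and 972, 1005 and 1077 counts in Model 1, 2 and 5. No library of any group lay within the range of another group. The level was 57.3 ± 0.25 CPM in PMLGH, 49.7 ± 3.0 CPM in GelMA and 29.5 ± 1.8 CPM in Model (SD, n = 3). Junb rose in PMLGH against Model by 0.96 ± 0.07 (adjusted p = 1.2e-07) and in GelMA against Model by 0.75 ± 0.07 (adjusted p = 2.3e-06). Between PMLGH and GelMA the difference of 0.21 ± 0.07 did not pass (adjusted p = 0.12).

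Jun, the JUN protein that activates most strongly, had 1376, 1329 and 1044 counts in PMLGH 2, 3 and 4, 1022, 965 and 1061 counts in GelMA 2, 3 and 4, and 555, 953 and 683 counts in Model 1, 2 and 5. Model 2 was the highest Model library, and on the CPM scale it lay within the range of GelMA (26.8 CPM, beside 26.4 to 28.7 CPM). Jun rose in PMLGH against Model by 0.68 ± 0.14 (adjusted p = 0.0023), at 33.8 ± 4.7 CPM in PMLGH and 21.1 ± 5.3 CPM in Model (SD, n = 3). GelMA, at 27.8 ± 1.2 CPM, differed from Model by 0.40 ± 0.14, which did not pass (adjusted p = 0.058). That difference passed under 3 of its 18 alternatives: without Model 2 (0.58, adjusted p = 7.8e-04), by DESeq2 (0.38, adjusted p = 0.034) and with no filter on low counts (0.38, adjusted p = 0.018). PMLGH against GelMA gave 0.28 ± 0.14 (adjusted p = 0.35). With Fosl2 and Jun both passing, 5 of the 10 factors rose in GelMA against Model without Model 2. Over all tested genes more were called there too, at 5053 (2585 rose and 2468 fell), beside 3804 with all 9 libraries (2143 and 1661).

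Jund, the JUN gene that most cells express steadily, held 81.3 to 89.9 CPM in PMLGH, 76.1 to 94.1 CPM in GelMA and 86.7 to 96.6 CPM in Model. The 3 ranges overlapped. Its log2 fold changes were -0.11 ± 0.07 in PMLGH against Model, -0.10 ± 0.07 in GelMA against Model and -0.0020 ± 0.075 in PMLGH against GelMA (adjusted p = 0.33, 0.36 and 0.99). The sign of the last turned under 4 of its 19 alternatives.

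Atf3, a stress-induced relative that can repress as well as activate, had 132, 229 and 216 counts in PMLGH 2, 3 and 4. GelMA 2, 3 and 4 had 121, 143 and 165 counts, and Model 1, 2 and 5 had 135, 104 and 100. PMLGH 2 lay below Model 1 on the CPM scale, so the groups overlapped. Atf3 rose in PMLGH against Model by 0.67 ± 0.23 (adjusted p = 0.039), the weakest of the 8 calls. The call was lost when any of 6 libraries was left out: PMLGH 3, PMLGH 4, GelMA 3, GelMA 4, Model 2 or Model 5 (adjusted p = 0.17, 0.14, 0.059, 0.052, 0.094 and 0.13), and its adjusted p ranged from 0.0092 to 0.17 over its 18 alternatives. It was also lost by limma on log2(FPKM + 0.1) or log2(FPKM + 1) (adjusted p = 0.057 and 0.059) and in the fit of the 6 compared libraries (0.061). GelMA against Model gave 0.25 ± 0.23 (adjusted p = 0.48) and PMLGH against GelMA 0.41 ± 0.22 (adjusted p = 0.40).

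**Figure D2:**
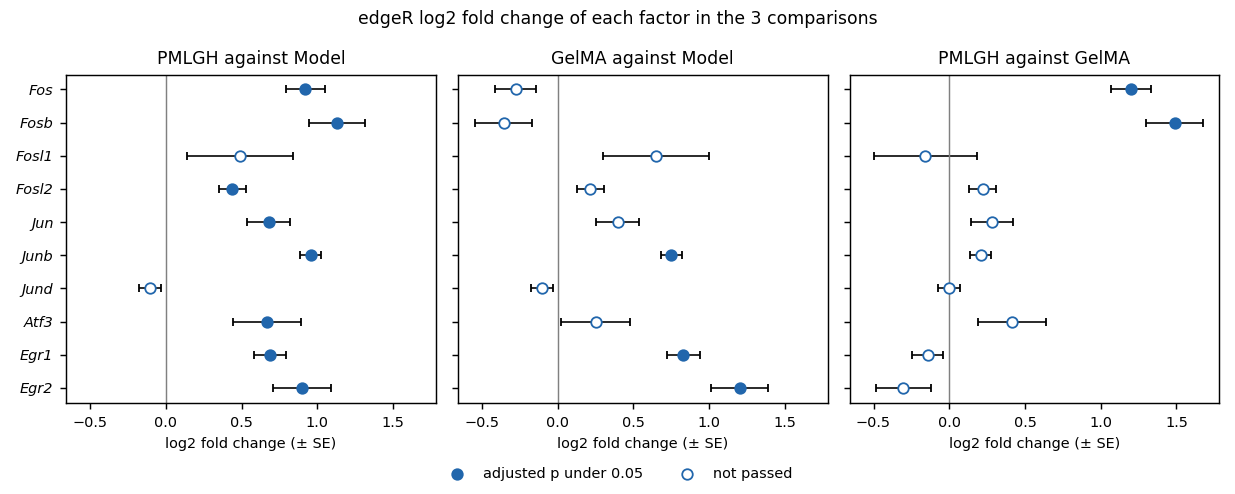
Log2 fold change of each factor (x axis, with its SE as a bar), with 1 panel for each of the 3 comparisons. Filled points passed at adjusted p under 0.05 and open points did not. Fos and Fosb are the filled points of the third panel, at 1.20 and 1.49, and lie below 0 in the second.

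Egr1, a zinc finger factor induced by growth factors and mechanical load, had 889, 925 and 863 counts in PMLGH 2, 3 and 4. It had 1002, 992 and 932 counts in GelMA 2, 3 and 4, and 607, 460 and 481 counts in Model 1, 2 and 5. Both PMLGH and GelMA lay above Model, and every GelMA library lay above every PMLGH library on the CPM scale. The level was 24.1 ± 0.72 CPM in PMLGH, 26.7 ± 1.3 CPM in GelMA and 15.0 ± 2.6 CPM in Model (SD, n = 3). Egr1 rose in PMLGH against Model by 0.69 ± 0.11 (adjusted p = 2.3e-04) and in GelMA against Model by 0.83 ± 0.11 (adjusted p = 6.1e-05). PMLGH against GelMA gave -0.14 ± 0.10 (adjusted p = 0.56).

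Egr2, known for myelin formation in nerve and for restraining T cells, had 137, 144 and 128 counts in PMLGH 2, 3 and 4, 167, 184 and 149 counts in GelMA 2, 3 and 4, and 64, 78 and 63 counts in Model 1, 2 and 5. Its libraries had the same order of groups as those of Egr1, with no overlap between any of them. The level was 3.69 ± 0.20 CPM in PMLGH, 4.56 ± 0.51 CPM in GelMA and 1.98 ± 0.19 CPM in Model (SD, n = 3). Egr2 rose in PMLGH against Model by 0.90 ± 0.19 (adjusted p = 0.0026) and in GelMA against Model by 1.20 ± 0.19 (adjusted p = 3.7e-04), the largest rise among the 10 factors in that comparison. PMLGH against GelMA gave -0.30 ± 0.18 (adjusted p = 0.45).

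Promoter windows of 7 of the 10 genes were found by symbol in the RefSeq set for GRCr8, each covering 250 bases before and 50 after the start of the gene. No window was found for Fos, Jun or Atf3, so their promoters were not searched. Those of Egr1 and Egr2 are shown from among the genes that rose in both PMLGH and GelMA, and that of Jund from among those that passed in no comparison. Capitals mark matches to 4 motifs searched on both strands: the AP-1 site TGANTCA, the cAMP response element TGACGTCA, the EGR site GCGNGGGCG and the CArG box, the site of serum response factor.
Egr1 promoter window (GRCr8, chr18:26736828-26737127, plus strand): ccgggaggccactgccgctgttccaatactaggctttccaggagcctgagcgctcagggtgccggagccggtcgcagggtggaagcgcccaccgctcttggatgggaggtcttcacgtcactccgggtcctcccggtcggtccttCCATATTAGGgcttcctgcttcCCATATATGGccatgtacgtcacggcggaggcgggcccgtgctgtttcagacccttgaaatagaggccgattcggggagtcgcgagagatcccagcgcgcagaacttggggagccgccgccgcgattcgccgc
Egr2 promoter window (GRCr8, chr20:21054392-21054691, minus strand): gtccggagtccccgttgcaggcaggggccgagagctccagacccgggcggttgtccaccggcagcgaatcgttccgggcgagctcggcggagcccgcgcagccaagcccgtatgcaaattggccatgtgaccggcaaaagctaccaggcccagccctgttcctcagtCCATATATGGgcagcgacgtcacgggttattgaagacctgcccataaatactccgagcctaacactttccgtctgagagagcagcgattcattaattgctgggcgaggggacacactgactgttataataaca
Jund promoter window (GRCr8, chr16:18769722-18770021, minus strand): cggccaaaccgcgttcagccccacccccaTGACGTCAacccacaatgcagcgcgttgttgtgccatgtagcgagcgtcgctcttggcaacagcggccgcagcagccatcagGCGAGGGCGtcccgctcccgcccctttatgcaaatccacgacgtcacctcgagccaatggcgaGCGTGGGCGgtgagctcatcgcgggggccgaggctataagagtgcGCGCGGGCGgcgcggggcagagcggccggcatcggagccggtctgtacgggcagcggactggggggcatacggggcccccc
A CArG box was found in the windows of Egr1, at -105 to -96 and at -83 to -74 from the start (the first base of the gene is 1), and of Egr2, at -83 to -74. The sequence CCATATATGG stood at the same distance in both. In all, 1.64% of 33469 promoter windows of this length held a CArG box. The window of Jund held the cAMP response element at -221 to -214, which 1.83% of windows held, and EGR sites at -139 to -131, -76 to -68 and -31 to -23. EGR sites were also found in the window of Fosl2, and 4.98% of all windows held at least 1. None of the 7 windows held the AP-1 site, which 7.33% of all windows held. Those of Fosb, Fosl1 and Junb held none of the 4 motifs. Junb, like Egr1 and Egr2, rose in both PMLGH and GelMA against Model, and Fosl1, like Jund, passed in no comparison. These matches describe the letters of the windows and no binding was measured.

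Levels of different genes were compared per length, in the deposited FPKM (fragments per kilobase of transcript, scaled by library total). Jund was the highest of the 10 in every group, at 50.6 ± 2.6 FPKM in PMLGH, 51.4 ± 4.9 FPKM in GelMA and 53.9 ± 2.6 FPKM in Model (SD, n = 3). Junb came next in each group, at 32.0 ± 0.44, 28.2 ± 1.3 and 16.3 ± 0.97 FPKM, with no library of the next gene reaching it. In PMLGH the following places were taken by Egr1, Fosl2, Fos and Jun (15.8, 15.0, 14.1 and 10.9 FPKM), where each overlapped with the next. In GelMA Egr1, Fosl2, Jun and Fos stood apart in that order, at 17.7, 13.1, 9.10 and 6.24 FPKM. In Model Fosl2 and Egr1 overlapped (11.0 and 9.69 FPKM), as did Fos and Jun (7.36 and 6.74 FPKM). Atf3 came after these in each group, and Fosb, Egr2 and Fosl1 were the lowest, with 0.517 to 2.13 FPKM as group means.

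The make-up of the AP-1 pool was described as the share of each gene in the summed FPKM of the 8 AP-1 genes. The sum itself was 128.0 ± 6.7 FPKM in PMLGH, 111.7 ± 6.2 FPKM in GelMA and 98.4 ± 2.7 FPKM in Model. Jund took 39.5% ± 1.4 of it in PMLGH, 46.0% ± 1.8 in GelMA and 54.8% ± 2.2 in Model (SD, n = 3), with no overlap between groups. Junb took 25.1% ± 1.1, 25.3% ± 0.54 and 16.6% ± 0.65 in the same order, and here PMLGH and GelMA overlapped. Fos took 8.93% to 12.4% in PMLGH, 5.50% to 5.72% in GelMA and 6.86% to 7.88% in Model. The 4 FOS genes together took 24.9% ± 1.4 in PMLGH, 18.7% ± 0.80 in GelMA and 20.1% ± 1.4 in Model. Fosl2 had a share of 11.7%, 11.7% and 11.1% as group means. These are transcript shares, and protein or dimer abundance was not measured.

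**Figure D3:**
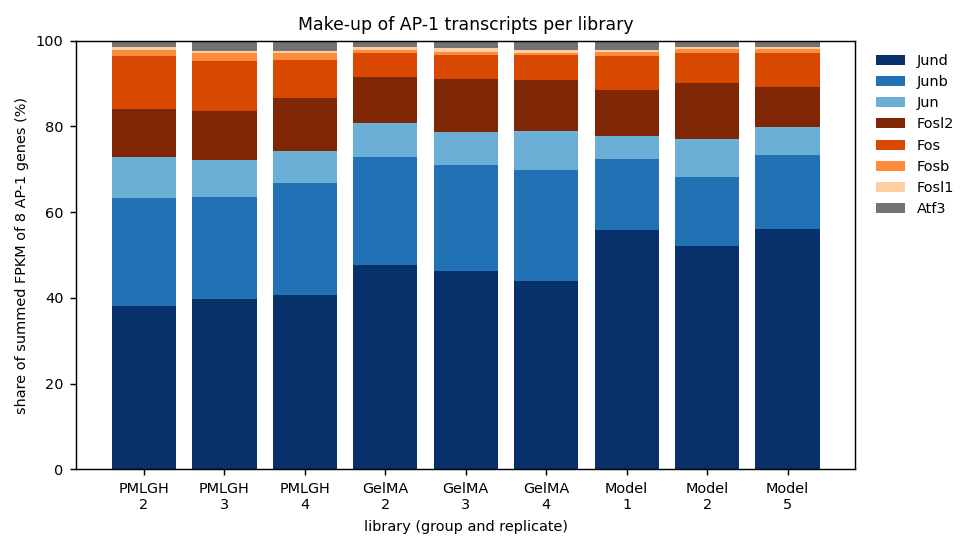
Share of each of the 8 AP-1 genes in their summed FPKM (y axis, percent) in each library (x axis, group and replicate number), with JUN genes in blue, FOS genes in orange and brown and Atf3 in grey. The Jund share runs from 38.0% to 40.8% in PMLGH, from 44.0% to 47.7% in GelMA and from 52.2% to 56.2% in Model.

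The factors resembled each other in subsets. Over the 9 libraries, 6 of the 45 pairs had a Pearson r of log2 CPM above 0.8. Fos and Fosb had an r of 0.96 (Spearman rho 0.92), Egr1 and Egr2 of 0.92 (rho 0.93), and Fosl2 and Jun of 0.85 (rho 0.68). Junb went with Egr1 and Egr2 (r of 0.88 and 0.87, rho of 0.52 and 0.45) and Fosl1 with Egr1 (r of 0.83, rho 0.82). Fos with Egr1 had an r of 0.15. Libraries of a group share its level, so these values reflect the group means. After each group mean was removed, the r of Fos with Fosb was 0.43 and that of Egr1 with Egr2 was -0.13. That of Fosl2 with Jun was 0.52 and that of Fosl1 with Egr1 was 0.59, while Junb gave 0.06 with Egr1 and -0.11 with Egr2.

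Against each factor 12851 genes averaging 1 CPM or more were compared, and the closest to Fos over the 9 libraries were B3glct, Golph3 and Fnip1 (r of 0.94 each, rho of 0.87, 0.88 and 0.78). Fosb was closest to Cd84, a receptor of the SLAM family on leukocytes, at an r of 0.97 (rho 0.80), with Cd84 at 106.1 ± 3.4 CPM in PMLGH, 78.9 ± 2.0 CPM in GelMA and 81.2 ± 0.85 CPM in Model. Junb was closest to Tagln, a protein of the contractile skeleton of smooth muscle and myofibroblasts, at an r of 0.99 (rho 0.95). Tagln had 86.0 ± 1.5 CPM in PMLGH, 67.1 ± 1.7 CPM in GelMA and 22.4 ± 3.5 CPM in Model. Egr1 was closest to Tgfb2, a TGF-beta ligand (r of 0.99, rho 0.93), and Egr2 to Ace, the angiotensin-converting enzyme, and Bglap, which encodes osteocalcin (r of 0.98 and rho of 0.98 each). Jun was closest to Mxd4, a member of the MAX network (r of 0.99, rho 0.98), and Atp6v1a, a subunit of the vacuolar proton pump, was among the 3 closest to Fosl2 (r of 0.98, rho 0.98). These likenesses are descriptions over 9 libraries that fall into 3 groups.

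Other genes of the same system were taken from lists written from general knowledge. EGR partners comprised Egr3, Egr4, Nab1, Nab2 and Wt1, of which Egr4 had 0 counts in every library and Wt1 was too low to be tested. Nab1 and Nab2, the co-repressors of EGR proteins, rose in PMLGH against Model by 0.41 ± 0.07 and 0.44 ± 0.13 (edgeR adjusted p = 7.8e-04 and 0.021) and in GelMA against Model by 0.24 ± 0.07 and 0.48 ± 0.13 (adjusted p = 0.030 and 0.016). The Nab2 calls were lost without PMLGH 2, PMLGH 3 or Model 5 (adjusted p = 0.11, 0.065 and 0.11) and without GelMA 3, GelMA 4 or Model 5 (0.061, 0.053 and 0.084), and that of Nab1 in GelMA without any of 5 libraries: GelMA 2, 3 or 4, Model 1 or Model 2 (0.067, 0.063, 0.15, 0.13 and 0.081). This Nab1 call was also lost with no filter on low counts (0.066) and in the fit of the 6 compared libraries (0.072). Egr3, a factor induced like Egr1 and needed for muscle spindles in mice, had 9.46 ± 1.2 CPM in PMLGH, 15.4 ± 2.2 CPM in GelMA and 7.88 ± 1.1 CPM in Model (SD, n = 3). It rose in GelMA against Model by 0.97 ± 0.14 (adjusted p = 2.5e-04) and fell in PMLGH against GelMA by 0.70 ± 0.14 (adjusted p = 0.011). The fall was not called without PMLGH 4 (0.063) or GelMA 3 (0.073), or by limma on log2(FPKM + 0.1) (0.056). PMLGH against Model gave 0.26 ± 0.15 (adjusted p = 0.21). Skeletal muscle markers had the same order of groups as Egr3: the summed level of 12 of them was 884 to 1241 CPM in PMLGH, 2660 to 3277 CPM in GelMA and 553 to 856 CPM in Model, none was at 0, and their part in the result was not tested.

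Among 11 other AP-1 and related bZIP genes, 5 rose and 2 fell in PMLGH against Model (median log2 fold change 0.26), where 15.7% of all tested genes rose and 11.9% fell. Jdp2, a dimer partner of JUN, rose by 0.73 ± 0.08 (adjusted p = 8.9e-06) and Maf by 0.26 ± 0.06 (adjusted p = 0.0046). Maff, a small MAF protein, rose by 0.74 ± 0.17, and Batf2, named after its value was seen, by 1.40 ± 0.34. Mafk, a small MAF protein that like Maff lacks an activation domain, fell by 0.34 ± 0.07, and Mafg, of the same kind, by 0.21 ± 0.06. In GelMA against Model, where 12.7% of all tested genes rose and 9.88% fell, 2 of the list rose, among them Maff (0.54 ± 0.18). Mafg and Mafk fell there (by 0.24 ± 0.06 and 0.24 ± 0.07, median of the list 0.11). The number that rose was 0 without GelMA 2, GelMA 3, Model 1 or Model 5. The Mafk call there was lost without GelMA 3, Model 1 or Model 5 (adjusted p = 0.064, 0.076 and 0.052). It was also lost by limma on log2(FPKM + 0.1) or log2(FPKM + 1) (adjusted p = 0.064 and 0.065). In PMLGH against GelMA Jdp2 rose by 0.50 ± 0.08 (adjusted p = 0.0016), at 48.7 ± 3.3 CPM in PMLGH and 34.5 ± 0.73 CPM in GelMA. Maf rose there by 0.30 ± 0.06 (adjusted p = 0.0089), a call lost without PMLGH 3 (0.065) or GelMA 2 (0.051). It was also lost by limma on log2(FPKM + 0.1) or log2(FPKM + 1) (adjusted p = 0.16 and 0.15).

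Of 23 kinases and factors that act above the immediate early genes, 2 rose and 3 fell in PMLGH against Model (median 0.08), where 27.5% of all tested genes were called. In GelMA against Model 1 rose and none fell (median 0.03), where 12.7% of all tested genes rose and 9.88% fell. None passed in PMLGH against GelMA (median 0.0087), where only 3.44% of all tested genes were called. Elk3, a partner of serum response factor, rose in PMLGH against Model by 0.53 ± 0.06 (adjusted p = 1.3e-05) and in GelMA against Model by 0.46 ± 0.06 (adjusted p = 8.0e-05). Map3k8, a kinase of inflammatory signalling, rose in PMLGH against Model by 0.41 ± 0.12, and its call was lost without PMLGH 3, Model 1 or Model 5 (adjusted p = 0.079, 0.064 and 0.071). Creb1 and Map2k3 fell by 0.20 and 0.19 there, the second named after its value was seen, and when single libraries were left out 1 to 4 genes rose there (1 without PMLGH 3, Model 1 or Model 5, and 4 without Model 2) and 0 to 3 fell (0 without PMLGH 3 or Model 5, and 1 without PMLGH 2, GelMA 2 or Model 1). The Creb1 call was lost without PMLGH 2, PMLGH 3, Model 1 or Model 5 (adjusted p = 0.11, 0.14, 0.11 and 0.065). It was also lost by limma on log2(FPKM + 0.1) or log2(FPKM + 1) (0.086 and 0.089) and in the fit of the 6 compared libraries (0.055). Without Model 2, 3 genes of this list rose in GelMA against Model and 2 fell, where 5053 of all tested genes were called, beside 3804 with all 9 libraries. Messenger levels of kinases do not measure their activity.

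Of 29 other immediate early genes, 18 rose and 2 fell in PMLGH against Model (median 0.32), where 15.7% of all tested genes rose and 11.9% fell. In GelMA against Model 9 rose and 4 fell (median 0.21), where 12.7% of all tested genes rose and 9.88% fell. In PMLGH against GelMA 6 rose and none fell (median 0.16), where 1.8% of all tested genes rose and 1.64% fell. Ccn1, a matrix protein made soon after growth factor signals, rose in PMLGH against GelMA by 0.81 ± 0.10 (adjusted p = 1.7e-04), at 55.2 ± 7.3 CPM in PMLGH, 31.5 ± 2.9 CPM in GelMA and 24.3 ± 1.8 CPM in Model. Bhlhe40, a repressor tied to the clock and to hypoxia, rose in both PMLGH and GelMA against Model (0.89 ± 0.09 in PMLGH and 0.82 ± 0.09 in GelMA). Btg2, which restrains cell division, fell in both (by 0.39 ± 0.05 in PMLGH and 0.31 ± 0.05 in GelMA), so the list did not move as a block. Per1, a clock gene that is also induced early, had 59.2 ± 3.9 CPM in PMLGH, 33.9 ± 6.1 CPM in GelMA and 65.4 ± 11 CPM in Model. It fell in GelMA against Model by 0.95 ± 0.12 (adjusted p = 7.4e-05) and rose in PMLGH against GelMA by 0.80 ± 0.12 (adjusted p = 0.0014). When single libraries were left out, 15 to 18 genes rose in PMLGH against Model and 4 to 11 in GelMA against Model (4 without GelMA 4, and 5 without GelMA 3 or Model 5). Falls numbered 2 to 4 in PMLGH against Model (4 without Model 2) and 3 to 5 in GelMA against Model. In PMLGH against GelMA 3 to 6 rose, with 3 without PMLGH 2 or GelMA 4.

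Other genes switch these signals off. Of 15 phosphatases, Sprouty and Spred proteins and RNA decay factors, 5 rose in PMLGH against Model (median 0.11), where 15.7% of all tested genes rose. In GelMA against Model 4 rose and 2 fell (median 0.16), where 12.7% of all tested genes rose and 9.88% fell. None passed in PMLGH against GelMA (median 0.08), where 3.44% of all tested genes were called. Zfp36l1, which speeds the decay of short-lived transcripts, rose by 0.40 ± 0.05 in PMLGH and 0.32 ± 0.05 in GelMA against Model (adjusted p = 3.5e-05 and 3.1e-04). Dusp6, a phosphatase of ERK, rose by 0.54 ± 0.09 and 0.40 ± 0.09 in the same comparisons (adjusted p = 5.4e-04 and 0.0060). Zfp36l2 fell in GelMA against Model by 0.27 ± 0.05 (adjusted p = 0.0027). Without Model 1, 2 genes rose there.

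Of 23 textbook targets of AP-1 that were tested, 18 rose and none fell in PMLGH against Model (median 0.77), where 15.7% of all tested genes rose. In GelMA against Model 15 rose and 1 fell (median 0.53), where 12.7% of all tested genes rose and 9.88% fell. In PMLGH against GelMA 5 rose (median 0.27), where 1.8% of all tested genes rose. Mmp3, the matrix protease stromelysin, rose by 2.19 ± 0.11 in PMLGH and 2.50 ± 0.11 in GelMA against Model (adjusted p = 2.8e-09 and 2.6e-09). Timp1, an inhibitor of matrix proteases, had 75.0 ± 3.5 CPM in PMLGH, 47.9 ± 2.5 CPM in GelMA and 29.0 ± 4.7 CPM in Model. It rose in PMLGH against GelMA by 0.65 ± 0.09, and Ccl2, a chemokine for monocytes, by 1.23 ± 0.19 (adjusted p = 7.1e-04 and 0.0014). Mmp14 rose there by 0.41 ± 0.08. That call was lost without PMLGH 3 (adjusted p = 0.063) and by limma on log2(FPKM + 0.1) or log2(FPKM + 1) (0.062 each). Il6, named after its value was seen, rose there by 2.21 ± 0.48. It held 193 counts over the 3 PMLGH libraries, 41 over those of GelMA and 8 over those of Model, so its fold change rests on few counts. The count in PMLGH against GelMA was 3 without PMLGH 3, and without Model 2 it was 7, with 2 more that fell. In GelMA against Model 10 rose without GelMA 3 or Model 5. Bglap and Ibsp in this list are also bone markers here, and Mmp9 is also an osteoclast marker, so the lists share genes. Most of these genes have other regulators as well, and no link to the AP-1 genes was tested.

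**Figure D4:**
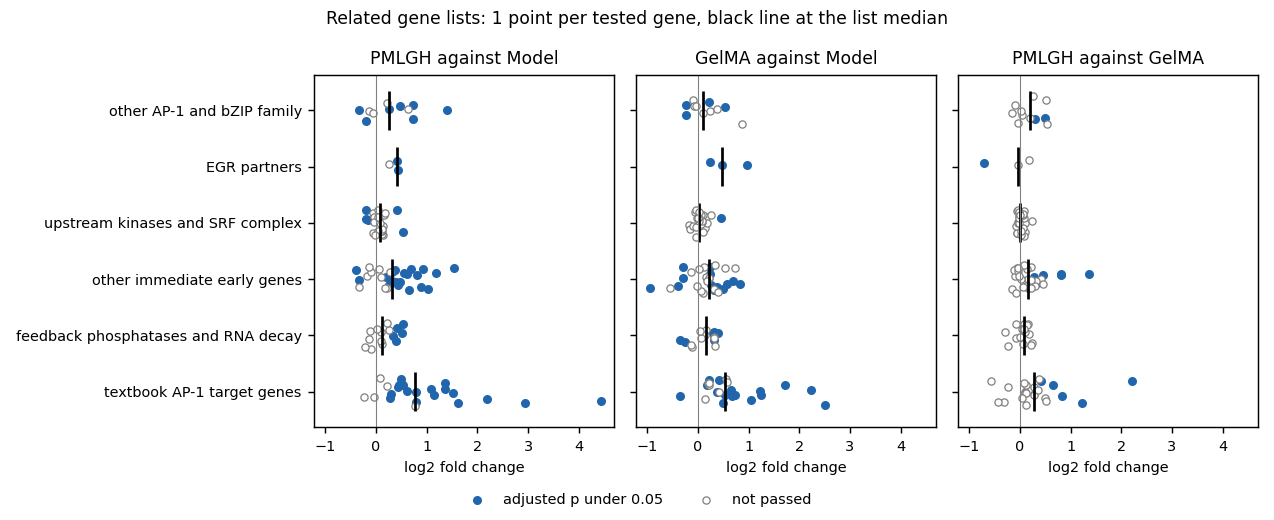
Log2 fold changes of related genes (x axis) by list (y axis) in the 3 comparisons (panels). Each point is a tested gene, filled where adjusted p was under 0.05, with a black line at the list median. The median of textbook AP-1 targets lies at 0.77 in PMLGH against Model and 0.53 in GelMA against Model. The median of the upstream kinases and SRF complex lies at 0.08 and 0.03 in the same comparisons.

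Markers of several cell types moved with the groups as well. Over all tested genes, 15.7% rose and 11.9% fell in PMLGH against Model. The shares were 12.7% and 9.88% in GelMA against Model, and 1.8% and 1.64% in PMLGH against GelMA. The summed level of 10 fibroblast and periosteum markers was 4345 to 5021 CPM in PMLGH, 3031 to 3414 CPM in GelMA and 1324 to 1500 CPM in Model, and all 10 rose in both PMLGH and GelMA against Model. Of 9 macrophage markers tested, 7 rose in PMLGH against Model and 6 in PMLGH against GelMA, at 1550 to 1602 CPM in PMLGH, 1270 to 1364 CPM in GelMA and 1207 to 1411 CPM in Model. Of 9 neutrophil markers tested, 3 rose in PMLGH against Model and none passed in PMLGH against GelMA, with 12041 to 15464 CPM in PMLGH, 12024 to 13039 CPM in GelMA and 10411 to 13796 CPM in Model. Of 7 osteoclast markers, 6 rose in PMLGH and 4 in GelMA against Model and 1 fell in PMLGH against GelMA, with sums of 2865 to 3465 CPM in PMLGH, 2508 to 2650 CPM in GelMA and 1553 to 1977 CPM in Model. Of 10 endothelial markers 6 and 5 rose in PMLGH and GelMA against Model, and of 9 markers of T and NK cells likewise 6 and 5. All 10 red cell markers fell in both PMLGH and GelMA against Model. Of the 12 bone markers, 9 rose in PMLGH and all 12 in GelMA against Model. In PMLGH against GelMA 3 bone markers fell and none rose. All 12 muscle markers rose in GelMA against Model and 11 of them fell in PMLGH against GelMA. Their summed level had the order of groups of Egr1 and Egr2, highest in GelMA and lowest in Model, while Fos and Fosb were lowest in GelMA. The sizes differed: in PMLGH against GelMA the median log2 fold change of the muscle markers was -1.41. Egr1 and Egr2 gave -0.14 and -0.30 there, and neither passed. The macrophage sum was, like Fos and Fosb, higher in every PMLGH library than in any other library. The same held for the fibroblast and periosteum, osteoclast, endothelial, and T and NK cell sums. Endothelial sums were 672 to 707 CPM in PMLGH, 594 to 647 CPM in GelMA and 532 to 572 CPM in Model. Those of T and NK cells were 384.5 to 398.8, 337.0 to 366.3 and 267.7 to 327.9 CPM in the same order. A single macrophage marker had 0 counts in GelMA, and no other marker was at 0 in a whole group. The part of these cell types in the levels of the AP-1 and EGR genes was not tested.

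**Figure D5:**
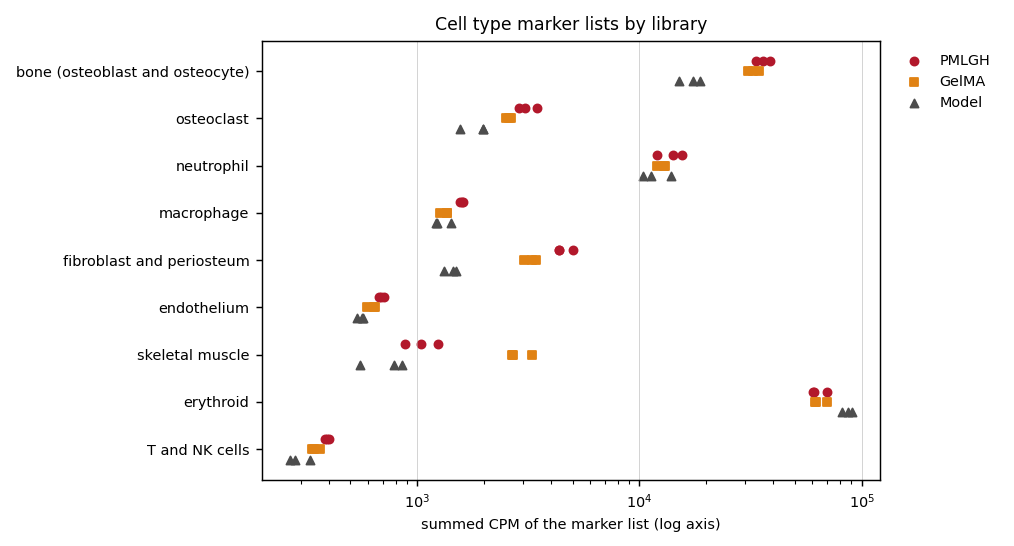
Summed CPM of each cell type marker list (x axis, log scale) in each library, with PMLGH, GelMA and Model on separate rows within a list (y axis). Fibroblast and periosteum markers separate all 3 groups, and muscle markers are highest in GelMA at 2660 to 3277 CPM.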

How the data were processed

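The authors deposited raw counts by gene symbol and FPKM, and both tables were read for 9 tibia libraries in 3 groups of 3. FPKM follows from count, library total and 1 fixed length of each gene (relative spread at most 1.1e-06) and adds no independent measurement. Per the submitters' processing notes, DESeq2 and R 3.2.0 were used, with no role stated. Not given in the sources used here were the aligner, counter, build, annotation and use of strand, and reads of overlapping antisense genes may be mixed.

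Counts were tested with edgeR 4.0.16 in R 4.3.3: filterByExpr kept 16816 genes, among them all 10 factors, TMM scaled the libraries, and the quasi-likelihood fit took a mean for each of the 3 groups (6 residual degrees of freedom). Tests were two-sided, with Benjamini-Hochberg adjustment over all tested genes in each comparison and a threshold of 0.05. The ± after a log2 fold change is its size divided by the square root of F. The procedure was tested on simulated data. Likeness used log2 CPM with a prior count of 2. The factors, lists and naming rule (up to 4 genes of smallest p per list and comparison, and the 3 closest genes per factor, of which the text gives some) were chosen with earlier results of these data known. Alternatives used DESeq2 1.42.0 and limma 3.58.1 on log2(FPKM + 0.1 or 1), other scalings and filters, a robust spread, only the compared libraries, a replicate block and each library left out. A protein comparison planned for the factors was not made. Some genes that the naming rule picks are not reported here.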

Additional observations from a re-analysis of the deposited data

How the results depend on the processing

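Under 19 alternative settings, 530 of 550 refitted log2 fold changes of the 10 factors kept their direction and side of the threshold, 9 lost a call (all for Atf3 in PMLGH against Model), 7 gained one and 4 turned sign. The calls of Fos and Fosb in PMLGH against Model and against GelMA, and those of Junb, Egr1 and Egr2 in both PMLGH and GelMA against Model, kept their direction and side of the threshold under every setting run for them (19 in PMLGH against GelMA, and 18 without the replicate block in the comparisons with Model), although on log2(FPKM + 1) Egr2 gave 0.38 in PMLGH and 0.55 in GelMA against Model and Fosb 0.66 and 0.81 in PMLGH against Model and against GelMA. The values that turned were Jund in PMLGH against GelMA, at 0.00091 with the replicate block and from -0.081 to 0.074 without single libraries (0.024 without PMLGH 2, 0.0057 without PMLGH 4 and 0.074 without GelMA 2), and Nab2 there, at 0.071 without PMLGH 4 and -0.15 without PMLGH 2, its extremes. The genes called in PMLGH against GelMA numbered 578, and 384 by limma on log2(FPKM + 0.1), 1059 in the fit of the 6 compared libraries, 1037 with the replicate block, and 303 (without PMLGH 3) to 1050 (without Model 2) without single libraries. In GelMA against Model 3 to 5 factors were called without single libraries, with 5 without Model 2, and 4 by DESeq2 and with no filter on low counts. All genes called in that comparison numbered 3804, and 5053 without Model 2, 4110 by DESeq2 and 4025 with no filter. Upper-quartile scaling gave 2370 higher and 2495 lower genes in PMLGH against Model, beside 2637 and 1994. The cause of these shifts was not tested. PMLGH and GelMA share replicate numbers 2, 3 and 4, whose libraries did not deviate together (r = 0.014, 0.027 and -0.0083), so the numbers are not read as pairs. With the block, Fosl2 in PMLGH against GelMA passed (0.22, adjusted p = 0.021), as in the fit of the same 6 libraries without it (0.025). All 30 closest genes were unchanged with a prior count of 0.5, and all 10 factors kept their order of groups in FPKM. Counts below about 60 per library limit what can be said of Fosl1.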
